A study of Zea mays with 18 samples.

Results

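A set of 45 maize genes separated 3 libraries labelled wild type from the other 15 libraries of a root stem cell experiment. The 3 libraries are WT_12h replicates 1 and 2 and WT_0h replicate 2, which resemble each other across all genes although they carry 2 labels. A gene was taken when its level in all 3 lay at least 2-fold above the highest, or at least 2-fold below the lowest, level of the other 15, with at least 3 CPM in every library of the higher side (CPM, a gene's share of its library's summed counts times 1000000). Of 28675 gene IDs that begin with Zm00001d, 7 were higher in the 3 libraries and 38 were lower, and 16843 reached 3 CPM in at least 1 library. None (0) of the 49 IDs of the other kind, which begin with GRMZM5G, met the same limits. The members were chosen by these CPM levels over all 18 libraries, so the levels are described below without a test.

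RNA was sequenced from the quiescent centre of maize root tips in 18 libraries, with 3 libraries in each of 6 labelled groups. WT_0h, S_0h and A_0h were seedlings 5 days old under normoxia (0 h), and WT_12h, S_12h and A_12h were such seedlings after 12 h under hypoxia, with the roots in liquid medium under 4% oxygen. WT is the wild type, S is the line ZmPgb1.1(S) that overexpresses Phytoglobin 1 (ZmPgb1.1), and A is the line ZmPgb1.1(A) in which that gene is down-regulated. No group was held at normoxia for 12 h, so time and oxygen cannot be told apart. The labels do not say how many seedlings or transformation events each library or line stands for, nor whether replicates came from separate cultures, so p-values here reflect library-to-library spread alone, and that spread may be technical. Quiescent centres were separated by dissection after the root cap was cut away, and the purity of the tissue was not checked.

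The quiescent centre is a small group of rarely dividing cells that keeps the surrounding root initials in the stem cell state. Its oxygen supply is low even in air, and flooding lowers it further. Phytoglobins are plant hemoglobins that scavenge nitric oxide, and a higher phytoglobin level is known to protect maize root tips under low oxygen. In bulk RNA, fewer cells of a type and less RNA per cell cannot be told apart.

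Libraries held 35441975 to 89759585 counts, and 3 counts corresponded to 0.0334 to 0.0846 CPM. Spearman correlations among the 3 libraries were 0.9966 to 0.9976 over 20945 genes, and those of the 3 with the other 15 were 0.9514 to 0.9837. The 2 nearest libraries of each of the 3 were thus the other members of this set. In each of the 6 groups, 1 library had both of its 2 nearest libraries in a single other group, and none in its own: WT_0h replicate 2, and replicate 3 of WT_12h, S_0h, S_12h, A_0h and A_12h. These 6 libraries go against their labels, and whether labels were exchanged was not tested. The labels were kept as given, so every difference below between times or lines is a difference between labelled groups, and results that rest on them are given with and without these 6. The deposited IDs could not be paired with gene names (0 matched), so ZmPgb1.1, quiescent centre markers and the role of any member are not analysed here, and genes are given by ID.

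The same rule was applied to 2 other sets of 3 libraries, and both gave more genes. It was not applied to the further sets of like libraries described below. It gave 577 genes for A_0h replicates 1 and 2 with S_12h replicate 3, of which 353 were higher and 224 lower. It gave 370 genes for S_12h replicates 1 and 2 with A_12h replicate 3, of which 353 were higher and 17 lower. Among these sets, the wild-type libraries had the fewest distinct genes, and lower genes made up most of them (38 of 45). These are counts without a test.

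Among the genes higher in the 3 libraries, Zm00001d030914.RefGen_V4 had the widest separation. It measured 14.9 and 18.7 CPM in WT_12h replicates 1 and 2 and 17.8 CPM in WT_0h replicate 2. In the other 15 libraries it lay between 0 and 0.306 CPM, with a median of 0.0369 CPM, near the level of 3 counts. Its lowest level in the 3 libraries was 48.7-fold above its highest level elsewhere, which was in A_0h replicate 3.

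Zm00001d030264.RefGen_V4 measured 14.5, 15.2 and 16.1 CPM in the 3 libraries, in the same order. Outside them it reached 3.81 CPM in A_0h replicate 3 and 2.94 and 3.36 CPM in A_12h replicates 1 and 2, and it was at 0.724 CPM or less in the other 12. Zm00001d044494.RefGen_V4 was also intermediate in A_0h replicate 3 (12.9 CPM) and in A_12h replicates 1 and 2 (12.4 CPM each), against 46.0 to 53.4 CPM in the 3 libraries. It was lowest, at 0.468 to 0.554 CPM, in WT_0h replicate 3, S_12h replicates 1 and 2 and A_12h replicate 3. It was at 8.63 to 9.88 CPM in WT_12h replicate 3 and S_0h replicates 1 and 2. In both genes the highest levels outside the 3 libraries were thus in the same 3 libraries of line A. Counting these, that was so in 4 of the 7 higher genes, and its share over all genes was not counted.

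Zm00001d051472.RefGen_V4 measured 50.03 to 56.3 CPM in the 3 libraries. The other 15 lay in a range from 18.5 to 22.6 CPM (WT_0h replicates 1 and 3, S_0h replicate 3, A_0h replicate 3, A_12h replicates 1 and 2) and a range from 0.831 to 4.46 CPM (the other 9). It was the higher gene with the highest mean in the 3 libraries (53.6 ± 3.23 CPM, SD over the 3), and its second level was shared by libraries of WT, S and A labels.

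Zm00001d029680.RefGen_V4 was at 19.1 to 22.5 CPM in the 3 libraries and at 4.16 to 7.99 CPM elsewhere. Zm00001d005529.RefGen_V4 was at 41.5 to 45.04 CPM, against 7.94 to 19.1 CPM. Zm00001d047201.RefGen_V4 was at 6.39 to 9.10 CPM against 0.619 to 2.97 CPM and had the smallest gap of the 7, 2.15-fold. Across the 7 genes, the highest of the 3 libraries was 1.09 to 1.42 times the lowest.

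**Figure D1:**
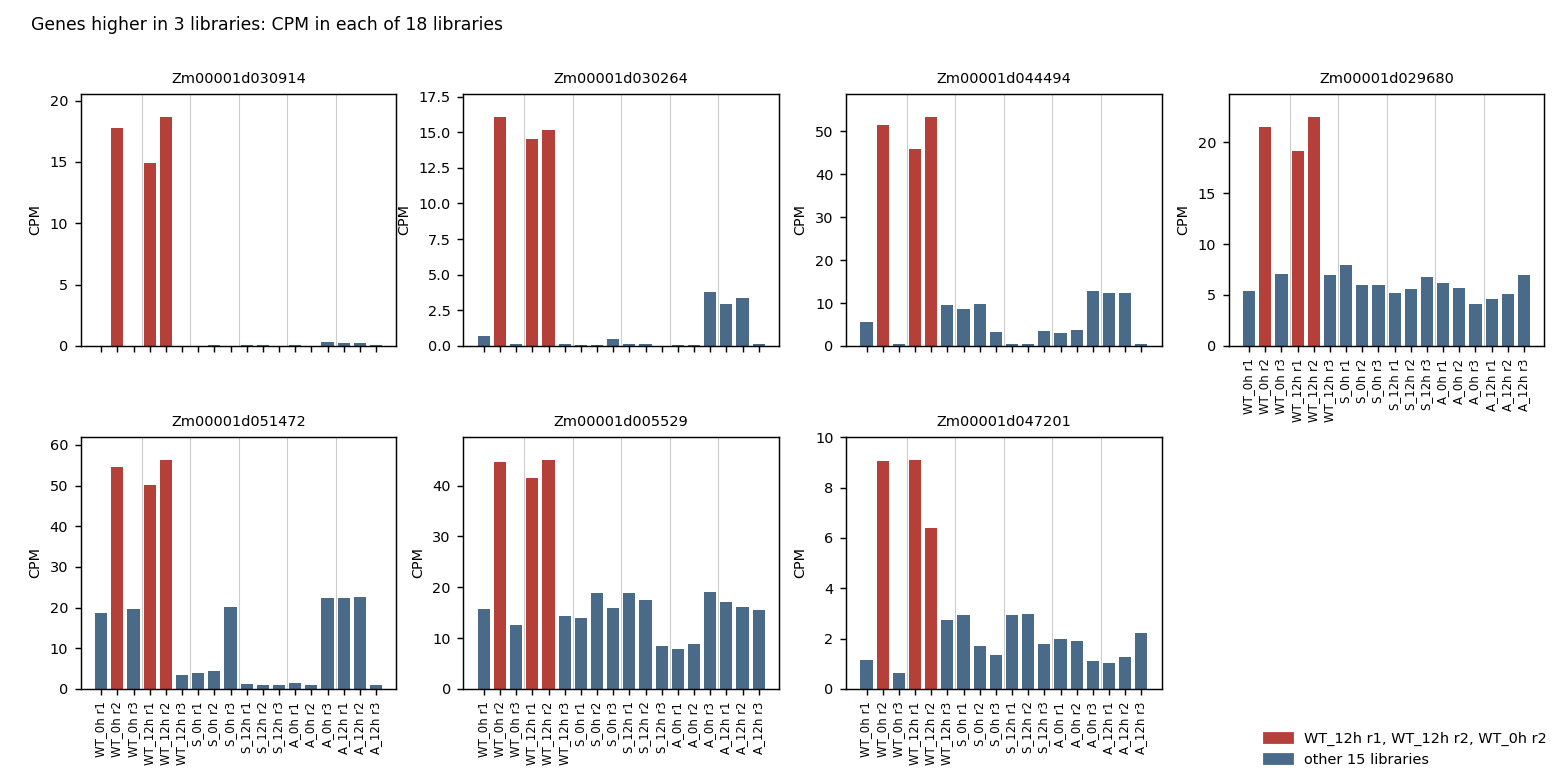
CPM of the 7 higher genes in each of the 18 libraries (bars, 1 per library, ordered by labelled group and replicate, written r1 to r3; linear axes from 0), with WT_12h replicates 1 and 2 and WT_0h replicate 2 in red. The red bars exceed all blue bars in each panel, as the rule requires, and the blue bars of Zm00001d051472 fall at 2 levels, up to 4.46 CPM and from 18.5 CPM.

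The genes lower in the 3 libraries included a group with almost no counts there. In 13 of the 38 all 3 libraries lay under 0.2 CPM, and in 7 of these no library of the 3 had more than 3 counts. Each of the 13 was at 3 CPM or more in all other libraries. In 24 genes the highest of the 3 libraries had 1 CPM or more, and only 1 gene, Zm00001d034066.RefGen_V4 (0.297 to 0.713 CPM, named after its values were seen), lay between these ranges.

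Zm00001d002475.RefGen_V4, Zm00001d003267.RefGen_V4 and Zm00001d026420.RefGen_V4 had 0 counts in all 3 libraries. The highest level that a count of 0 allows there is 0.0445 CPM (3 counts per library), which covers counting error only. Zm00001d002475.RefGen_V4 measured 22.5 to 66.4 CPM in the other 15 (median 44.2 CPM), at least 505-fold higher. Zm00001d003267.RefGen_V4 measured 14.4 to 63.5 CPM (median 33.6 CPM), at least 324-fold higher, and Zm00001d026420.RefGen_V4 measured 4.79 to 26.4 CPM (median 13.4 CPM), at least 107.5-fold higher. Each fold compares the lowest of the 15 with that limit. In the other WT libraries Zm00001d002475.RefGen_V4 was at 44.6 CPM (WT_0h replicate 1), 44.2 CPM (WT_0h replicate 3) and 45.1 CPM (WT_12h replicate 3), so both labelled WT groups held libraries with and without it.

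Zm00001d018925.RefGen_V4 was the most abundant of the genes with at most 3 counts in each of the 3 libraries. It had 0 counts in WT_12h replicates 1 and 2 and 2 counts in WT_0h replicate 2. Elsewhere its levels were 28.0 to 296 CPM: 296 CPM in replicate 1 of WT_0h, 187 CPM in its replicate 3, 182 CPM in WT_12h replicate 3, 182 to 248 CPM in S_0h, 31.5 to 94.2 CPM in S_12h, 28.0 to 63.2 CPM in A_0h and 66.1 to 89.3 CPM in A_12h. By label it measured 160.9 ± 149.5 CPM in WT_0h and 60.7 ± 105 CPM in WT_12h (SD, n = 3), each label holding libraries with and without more than 2 counts. Zm00001d045047.RefGen_V4, Zm00001d039042.RefGen_V4 and Zm00001d032016.RefGen_V4 had 1 or 2 counts in all 3 libraries together, and 3.92 to 29.9, 4.98 to 10.4 and 6.71 to 13.0 CPM elsewhere.

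The next genes in order of separation had a few counts per library in the 3. Zm00001d034434.RefGen_V4 and Zm00001d034735.RefGen_V4 reached 4 counts, with 4.92 to 26.5 and 3.84 to 17.8 CPM in the other libraries. Zm00001d044502.RefGen_V4 had at most 0.109 CPM against at least 8.49 CPM, a 78.2-fold gap. Zm00001d038383.RefGen_V4 had at most 0.134 CPM against at least 7.73 CPM (57.8-fold), and Zm00001d034460.RefGen_V4 at most 0.156 CPM against at least 5.14 CPM (32.9-fold).

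**Figure D2:**
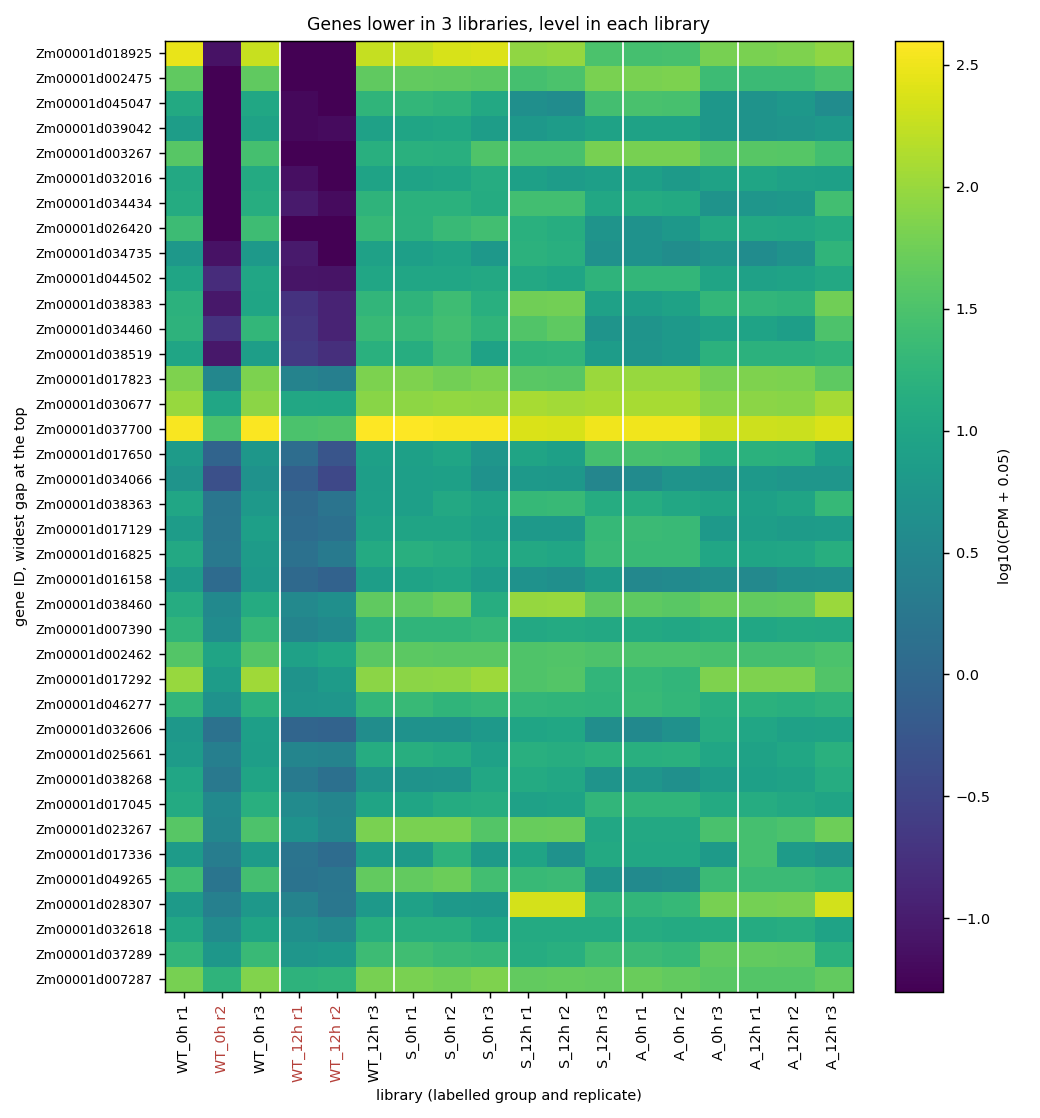
Levels of the 38 lower genes (rows, widest gap at the top) in the 18 libraries (columns, by labelled group and replicate, written r1 to r3), as log10(CPM + 0.05), where 0.05 CPM is added so that 0 can be drawn. WT_0h r2, WT_12h r1 and WT_12h r2, with red labels, are darkest in each row, and the first 13 rows lie under 0.2 CPM there.

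Abundant genes were among the 38 as well. Zm00001d037700.RefGen_V4 measured 31.4 and 33.7 CPM in WT_12h replicates 1 and 2, 30.8 CPM in WT_0h replicate 2 and 196 to 397 CPM in the other 15, a gap of 5.83-fold. It was 364 CPM in WT_0h replicate 1, 374 CPM in its replicate 3 and 397 CPM in WT_12h replicate 3. Zm00001d030677.RefGen_V4 was at 10.04 to 11.0 CPM in the 3 and at 79.3 to 124 CPM elsewhere, a gap of 7.20-fold. In both, the 3 libraries kept a measurable level with a small spread (SD 1.49 and 0.491 CPM).

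Over the 38 genes the median gap was 3.71-fold, and 14 had a gap of at least 10-fold. Over the 7 higher genes the median was 2.39-fold, and 1 reached 10-fold. The 21 lower genes not named by the rule for named genes had gaps of 2.18 to 29.7-fold, levels of 0.0407 to 10.5 CPM in the 3 libraries and 3.01 to 225 CPM elsewhere. In the 21 lower genes with at least 1 CPM in each of the 3, the highest of them was at the median 1.30 times the lowest, and at most 1.90 times. The 38 genes together took 0.0124 to 0.0127% of the counts in the 3 libraries and 0.104 to 0.153% in the others.

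Just inside the 2-fold limit lay Zm00001d007287.RefGen_V4 (2.05-fold), Zm00001d037289.RefGen_V4 (2.07-fold) and Zm00001d032618.RefGen_V4 (2.11-fold) among the lower genes, and Zm00001d047201.RefGen_V4 (2.15-fold), Zm00001d005529.RefGen_V4 (2.17-fold) and Zm00001d051472.RefGen_V4 (2.22-fold) among the higher. Just outside lay Zm00001d023265.RefGen_V4 (1.97-fold), Zm00001d021073.RefGen_V4 (1.97-fold) and Zm00001d022084.RefGen_V4 (1.97-fold) on the lower side, and Zm00001d050214.RefGen_V4 (1.95-fold), Zm00001d044506.RefGen_V4 (1.94-fold) and Zm00001d013565.RefGen_V4 (1.93-fold) on the higher. These genes lay close to the limit on both sides of it.

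**Figure D3:**
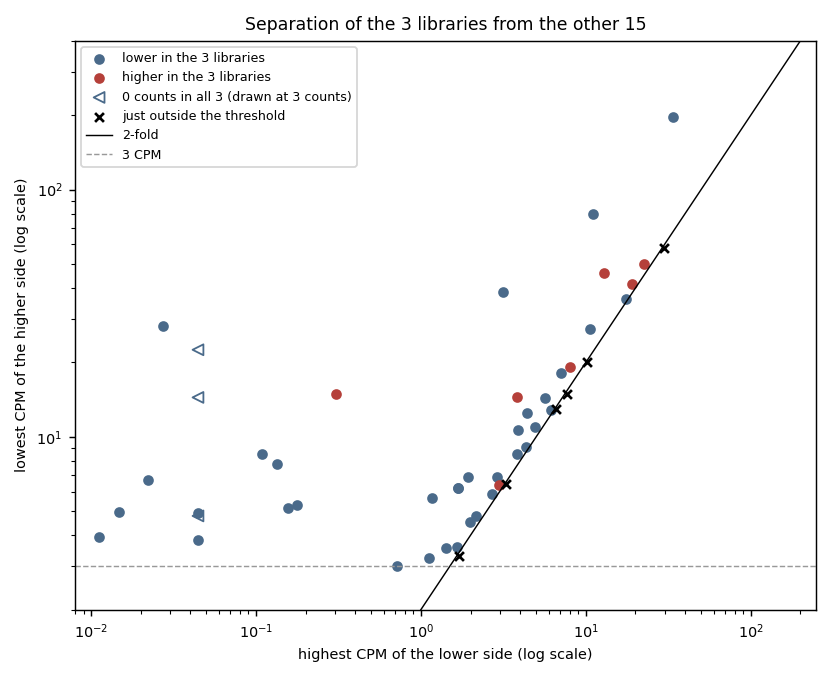
Lowest CPM of the higher side against highest CPM of the lower side for the 45 genes (circles; triangles for the 3 genes with 0 counts in all 3 libraries, drawn at the CPM of 3 counts) and for the 6 genes just outside (crosses), on log axes, with lines at 2-fold and at 3 CPM. Of the lower genes, 13 lie under 0.2 CPM on the x axis and the other 25 above it, among them Zm00001d017823 with a 12.2-fold gap, and the higher genes lie near the line except Zm00001d030914 at 0.306 CPM.

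The members differed from each other in how they varied over the 15 libraries the rule set them against. Among the lower genes the highest of the 15 was 1.47 to 38.4 times the lowest (median 3.47), under 2 times in 7 genes and at least 5 times in 13. A_0h replicates 1 and 2 and S_12h replicate 3, which resemble each other, all lay below the other 12 in 8 lower genes and above them in 10. S_12h replicates 1 and 2 and A_12h replicate 3 all lay below the other 12 in 3 and above them in 8. A_12h replicates 1 and 2 and A_0h replicate 3 all lay below the other 12 in 8 and above them in 1. For WT_0h replicates 1 and 3 with S_0h replicate 3 these counts were 3 and 4, and for S_0h replicates 1 and 2 with WT_12h replicate 3 they were 1 and 6. How many of all genes separate these sets of libraries in this way was not counted. The counts therefore describe the members and do not set them apart from other genes.

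The 4 lower genes with the widest range over the 15 were Zm00001d028307.RefGen_V4, Zm00001d049265.RefGen_V4, Zm00001d018925.RefGen_V4 and Zm00001d034460.RefGen_V4, of which the first pair was named after the values were seen. Zm00001d028307.RefGen_V4 measured 2.68, 1.74 and 2.47 CPM in WT_12h replicates 1 and 2 and WT_0h replicate 2, and 5.85 to 8.43 CPM in the other WT libraries and in S_0h. In S_12h it was at 225, 224 and 18.6 CPM (replicates 1 to 3). In A_0h it was at 18.7, 20.5 and 63.8 CPM, and in A_12h at 61.4, 62.3 and 217 CPM.

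Zm00001d049265.RefGen_V4 was at 1.48 to 1.65 CPM in the 3 libraries and next lowest, at 3.59 to 4.94 CPM, in the A_0h libraries 1 and 2 and in S_12h replicate 3. It was highest, at 45.7 to 52.7 CPM, in WT_12h replicate 3 and S_0h replicates 1 and 2. Zm00001d034460.RefGen_V4 was lowest of the 15, at 5.14 to 6.39 CPM, in those same A_0h and S_12h libraries, and highest in S_12h replicates 1 and 2 and A_12h replicate 3, at 32.2 to 42.9 CPM. In Zm00001d028307.RefGen_V4, Zm00001d049265.RefGen_V4 and Zm00001d034460.RefGen_V4, S_12h replicate 3 was close to A_0h replicates 1 and 2 and far from the other S_12h libraries.

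**Figure D4:**
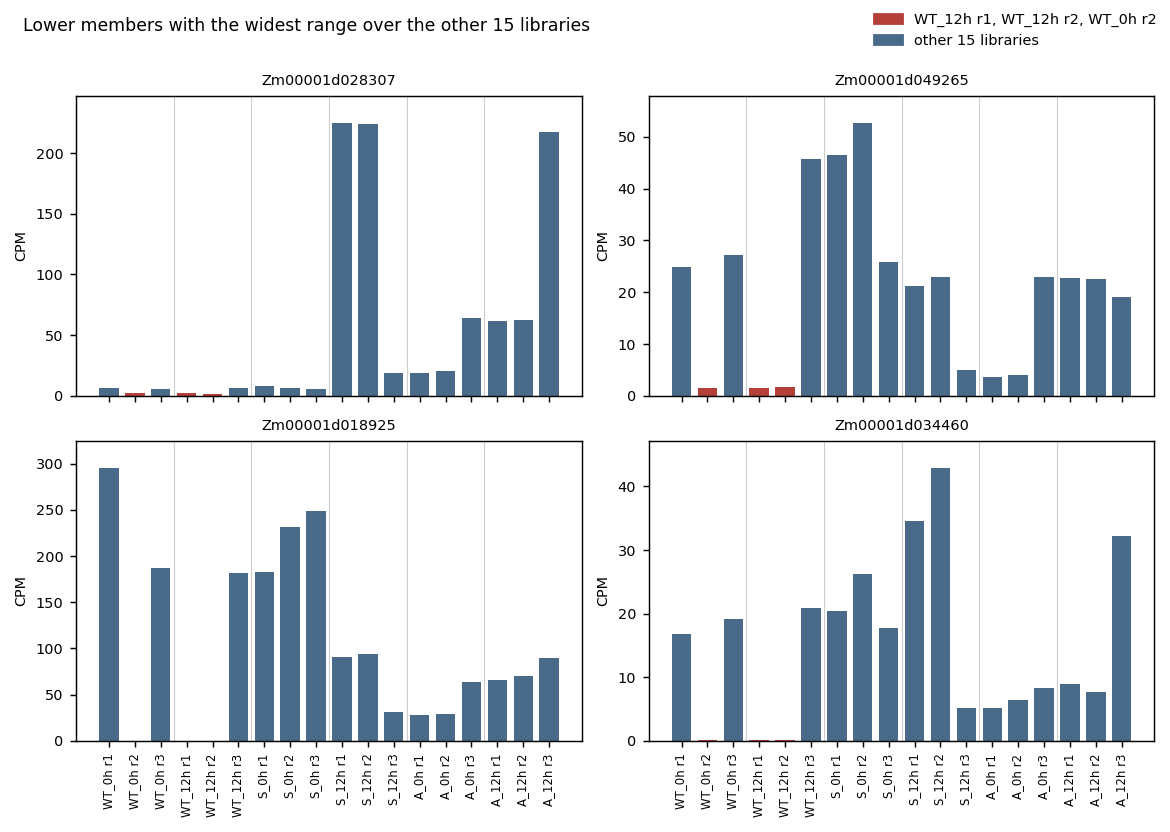
CPM of the 4 lower genes with the widest range over the other 15 libraries (bars, 1 per library, by labelled group and replicate, written r1 to r3; linear axes from 0), with WT_12h replicates 1 and 2 and WT_0h replicate 2 in red. Zm00001d028307 is at 217 to 225 CPM in S_12h r1, S_12h r2 and A_12h r3 and at 63.8 CPM or less elsewhere.

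Comparisons within and between lines S and A contain none of the 3 libraries and were tested by labelled group in a fit to all 20945 genes that passed a filter on low counts. All 7 higher and all 38 lower genes passed that filter. With only the S groups in the fit, 38 lower genes but 5 of the 7 higher genes passed it. Zm00001d030914.RefGen_V4 and Zm00001d030264.RefGen_V4, the other higher genes, were at 0 to 0.0614 CPM and 0 to 0.485 CPM in the S libraries and entered the S test through libraries of other groups, so that they were not called there says nothing of them. Both also failed the filter with only the groups of either comparison of A with S. The fit takes each gene's spread over all 6 groups, and the rule splits WT_0h and WT_12h by construction, so members carry a wide error here (median SE of the log2 fold change 0.88 over the lower genes in the S comparison). Fewer members can thus reach a small p-value in fits that hold all WT libraries, whatever their levels in S and A. Low counts of members there, set beside the share of all genes, do not show a weaker response.

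Under hypoxia in line S, 1 lower gene rose: Zm00001d028307.RefGen_V4, with a mean of 155.8 ± 119 CPM in S_12h against 6.84 ± 1.39 CPM in S_0h (SD, n = 3). Its log2 fold change was 4.48 with an SE of 0.90 (adjusted p = 0.0128 by edgeR's quasi-likelihood test). It was higher in all 3 S_12h libraries than in any of S_0h, with 18.6 CPM in S_12h replicate 3. Its call ended without S_0h replicate 2 (adjusted p = 0.0668), S_0h replicate 3 (0.0568) or S_12h replicate 1 (0.0505), and with only the S groups in the fit (0.079). The other 37 lower and all 7 higher genes were not called, against 8.70% of all genes tested (4.78% higher and 3.92% lower) and 10.2% of genes with at least 3 CPM in each of the other 15 libraries. At an unadjusted p under 0.05 there were Zm00001d028307.RefGen_V4 among the 38 lower genes and Zm00001d051472.RefGen_V4 among the 7 higher, against 28.7% of all genes. DESeq2 called both, against 18.1% of all genes.

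Zm00001d051472.RefGen_V4 was at 9.54 ± 9.22 CPM in S_0h and 0.958 ± 0.159 CPM in S_12h (log2 fold change -3.35, SE 1.37, adjusted p = 0.127 by edgeR and 0.037 by DESeq2). S_0h replicate 3, at 20.2 CPM, held most of that S_0h mean, and replicates 1 and 2 held 3.97 and 4.46 CPM. With only the S groups in the fit, 11 of the 38 lower genes had an unadjusted p under 0.05, against 22.5% of all genes, and 0 were called, against 0.855% of all genes.

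Under hypoxia in line A, no member was called by edgeR or DESeq2 (0 of 7 and 0 of 38), against 0% of all genes by edgeR and 0.754% by DESeq2. At an unadjusted p under 0.05 there were 0 of 7 and 1 of 38, against 19.2% of all genes, though the members' wide error holds such counts down. The 1 gene was Zm00001d028307.RefGen_V4 (34.3 ± 25.5 CPM in A_0h, 113.7 ± 89.8 CPM in A_12h; log2 fold change 1.71, SE 0.79, adjusted p = 0.257 by edgeR). Log2 fold changes of the lower genes ran from -2.14 to 1.71, with a median of 0.14, beside 0.02 over all genes. Those of the higher genes ran from -0.17 to 0.89.

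Between the lines at 0 h, edgeR called 0 of 7 and 0 of 38 members in A_0h against S_0h, against 1.82% of all genes called (0.893% higher and 0.931% lower in A) and 2.11% of those at 3 CPM or more. At an unadjusted p under 0.05 there were 0 and 1, against 21.5% of all genes, though the members' wide error holds such counts down. The 1 gene was again Zm00001d028307.RefGen_V4 (log2 fold change 2.31, SE 0.82, adjusted p = 0.132 by edgeR), which DESeq2 called (adjusted p = 0.0459, against 9.77% of all genes). With only these groups in the fit, 15 of the 38 lower genes had an unadjusted p under 0.05, against 19.9% of all genes, and 0 were called, against 0.256% of all genes. After 12 h, 0 of 7 and 0 of 38 were called in A_12h against S_12h by edgeR and by DESeq2, against 0% of all genes by edgeR and 0.339% by DESeq2. At an unadjusted p under 0.05 there were 1 and 0, against 7.55% of all genes. The 1 higher gene was Zm00001d051472.RefGen_V4 (15.3 ± 12.5 CPM in A_12h, 0.958 ± 0.159 CPM in S_12h; log2 fold change 3.99, SE 1.40, adjusted p = 0.646 by edgeR).

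The counts over all genes beside these results rested on single libraries. Without S_12h replicate 3, 6074 genes were called in S_12h against S_0h, and without any other single library of these groups 228 to 491 were, in place of 1822. Without A_0h replicate 3, 5112 genes in place of 0 were called in A_12h against A_0h and 3138 in place of 382 in A_0h against S_0h, where leaving out any other single library gave 47 to 117. In these fits no member was called other than Zm00001d028307.RefGen_V4 in S.

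Leaving out the 6 libraries closest to another group changed these counts. Those libraries were picked by their resemblance, which narrows the spread within each group by construction, so the p-values of this fit are too small to stand alone. With 12 libraries, 2 per group, 27 of 38 lower genes were called in S_12h against S_0h, 11 higher and 16 lower, against 54.9% of all genes (27.6% higher and 27.3% lower) and 64.6% of genes at 3 CPM or more. The share of lower genes called was 71.1%. In A_12h against A_0h 29 of 38 were called, 12 higher and 17 lower (76.3%, beside 59.5% and 63.2%, with 30.9% of all genes higher and 28.6% lower). In A_0h against S_0h 27 were called, 11 higher and 16 lower (71.1%, beside 54.3% and 56.3%, with 27.9% higher and 26.4% lower). In A_12h against S_12h 24 were called, 7 higher and 17 lower (63.2%, beside 47.6% and 56.3%, with 25.9% higher and 21.7% lower). Of all genes, 47.6 to 59.5% were called in this fit, and whether the members differ from them was not tested.

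In that fit of 12 libraries, Zm00001d028307.RefGen_V4 was higher under hypoxia in both lines, with log2 fold changes of 4.93 (SE 0.16, adjusted p = 2.29e-08 by edgeR) in S and 1.63 (SE 0.14, adjusted p = 1.46e-05) in A. Zm00001d045047.RefGen_V4 was lower in both, at -2.14 (SE 0.12, adjusted p = 5.12e-12) and -2.44 (SE 0.12, adjusted p = 2.23e-13). Zm00001d018925.RefGen_V4 and Zm00001d049265.RefGen_V4 fell in S (-1.18 and -1.19) and rose in A (1.23 and 2.53), all 4 called by edgeR. Called changes of opposite sign were not particular to this pair. Zm00001d017292.RefGen_V4 also fell in S (-1.31) and rose in A (1.86), and Zm00001d034434.RefGen_V4 rose in S (0.76) and fell in A (-1.08). Zm00001d037289.RefGen_V4, Zm00001d026420.RefGen_V4 and Zm00001d023267.RefGen_V4 likewise fell in S and rose in A. Zm00001d030677.RefGen_V4 and Zm00001d003267.RefGen_V4 rose in S and fell in A. How many of all genes had called changes of opposite sign was not counted. Among the higher genes 3 of 7 were called in S, all lower (Zm00001d044494.RefGen_V4 at -4.14, Zm00001d051472.RefGen_V4, and Zm00001d029680.RefGen_V4 at -0.38). The 7 include Zm00001d030914.RefGen_V4 and Zm00001d030264.RefGen_V4, at 0.0614 and 0.129 CPM or less in the S libraries kept. That they were not called in S again says nothing of them. In A 5 of 7 were called, of which Zm00001d030264.RefGen_V4 (5.62), Zm00001d051472.RefGen_V4, Zm00001d030914.RefGen_V4 (2.87) and Zm00001d005529.RefGen_V4 (0.95) were higher and Zm00001d047201.RefGen_V4 (-0.77) was lower. The call of Zm00001d030914.RefGen_V4 rested on few counts, 19 and 23 in A_12h replicates 1 and 2 (0.267 and 0.273 CPM). A_0h replicates 1 and 2 had 4 and 0 counts of it. Zm00001d051472.RefGen_V4 fell in S (-2.05, SE 0.15, adjusted p = 2.15e-10) and rose in A (4.16, SE 0.13, adjusted p = 3.2e-16). The median SE of the lower genes in S was 0.13 here. Differences between the lines in these responses were not tested.

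**Figure D5:**
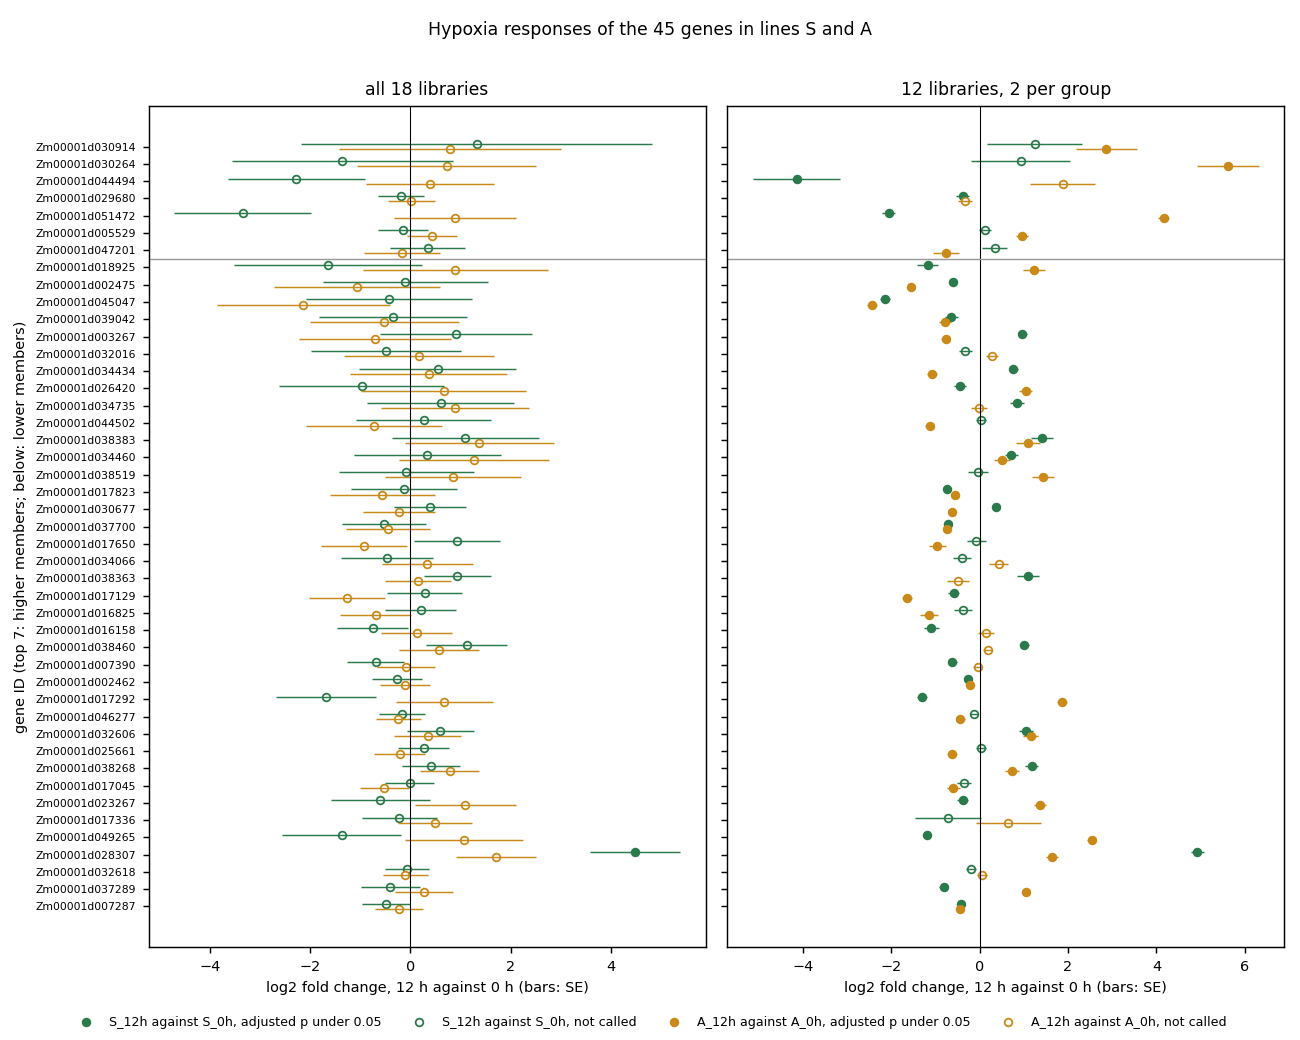
Log2 fold changes of the 45 genes, 12 h against 0 h, in line S (green) and line A (orange), with bars of 1 SE, fitted with all 18 libraries (left) and with the 12 libraries left without the 6 closest to another group (right). Filled circles have an adjusted p under 0.05 by edgeR: 1 on the left, Zm00001d028307 in line S, and on the right 27 lower and 3 higher genes in S and 29 lower and 5 higher genes in A.

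The labelled WT comparison holds the libraries that chose the genes, so nothing is read from it. By edgeR 0 of 7 higher and 0 of 38 lower genes were called in WT_12h against WT_0h, beside 0% of all genes. At an unadjusted p under 0.05 there were 0 and 1, beside 1.81% of all genes. DESeq2 also called 0 and 0, beside 0.0239% of all genes. Without the 6 libraries, 7 of 7 (all higher) and 37 of 38 (all lower) were called, beside 29.2% of all genes (13.6% higher and 15.6% lower), as the rule makes likely, since that fit sets WT_12h replicates 1 and 2 against WT_0h replicates 1 and 3.

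Some members were neighbours in the order of the deposited table. No coordinates of this build were used here, so nearness is counted in rows, between members whose ID numbers differ by at most 1000. Of the 45 genes, 14 had another member within 50 rows and 26 within 200 rows, in a table with 638 rows per member, and 8 runs of neighbours held these 26. The other 19 had none within 200 rows. The largest ran from Zm00001d016825.RefGen_V4 to Zm00001d017823.RefGen_V4, with 7 lower genes in 585 rows, of which 361 genes reached 3 CPM. The next, from Zm00001d038268.RefGen_V4 to Zm00001d038519.RefGen_V4, held 5 lower genes in 151 rows, among them Zm00001d038383.RefGen_V4. Zm00001d044494.RefGen_V4, a higher gene, and Zm00001d044502.RefGen_V4, a lower gene, lay within a span of 7 rows, so neighbours did not always share a direction. Neighbours were sought on both sides of a gene, so the 638 rows per member do not say how many would lie so near at random. Whether members lie closer together than other genes was not tested.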

How the data were processed

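Read counts per gene ID in 18 libraries were analysed as deposited, as raw counts that were not normalised. The authors name the aligner HISAT2, the counter featureCounts and the maize build B73 RefGen_v4, per the submitters' processing notes. Tool versions, strand and multi-mapping settings were not given in the sources used here, so near-identical, overlapping and antisense genes are uncertain. Groups came from the titles.

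CPM used column sums. The members, lists and the 6 left-out libraries were chosen with earlier results of these data known. Named genes were the 12 widest gaps, the 3 highest means and the 3 genes on each side of the 2-fold limit, per direction. Lists and markers by gene name could not be applied (0 IDs matched). Tests used edgeR 4.0.16 in R 4.3.3 (filterByExpr, TMM, robust quasi-likelihood, 1 mean per group, Benjamini-Hochberg over 20945 genes, called at an adjusted p under 0.05). DESeq2 1.42.0 was an alternative. The edgeR test was also run on simulated counts whose groups followed their labels. That run does not show how the test behaves where libraries resemble another group, as here. Labels do not pair replicates. Intervals and floors (3 counts) cover counting error only.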

Additional observations from a re-analysis of the deposited data

Results flagged for a closer look

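The labelled S and A libraries of Zm00001d018925.RefGen_V4 did not overlap between 0 h and 12 h, and the order of the times was opposite in the lines. All 45 members were searched for this pattern, and only this gene had it. How many of all genes have it was not counted. Its mean in S_12h was 0.327 times that in S_0h, and its mean in A_12h was 1.88 times that in A_0h. In line A the separation was narrow, with 63.2 CPM in A_0h replicate 3 and 66.1 CPM in A_12h replicate 1. A_0h replicate 3 is among the 6 libraries closest to another group, in its case A_12h. Neither change was called (log2 fold change -1.64, adjusted p = 0.586 in S, and 0.89, adjusted p = 0.76 in A, by edgeR). The difference between the lines was not tested.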

How the results depend on the processing

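The number of distinct genes follows the limits by construction. A 3-fold limit left 3 higher and 21 lower genes, a lowest level of 1 CPM gave 12 and 82, and one of 10 CPM left 14 lower. TMM-scaled CPM gave 7 and 38. Leaving out 1 library at a time gave 7 to 10 higher and 38 to 46 lower. A left-out library can only loosen the rule, so these counts could not fall below 7 and 38. Without the 6 libraries closest to another group, more members were called. In S_12h against S_0h, 3 of the 7 higher and 27 of the 38 lower members were, beside 54.9% of all genes. These counts were 5 and 29 in A_12h against A_0h, beside 59.5% of all genes. They were 2 and 27 in A_0h against S_0h (beside 54.3%) and 5 and 24 in A_12h against S_12h (beside 47.6%). Zm00001d030914.RefGen_V4 and Zm00001d030264.RefGen_V4 are among the 7, though near 0 CPM in the S and A_0h libraries kept. That they were not called in S_12h against S_0h or in A_0h against S_0h says nothing of them. DESeq2 called 1 higher member in S_12h against S_0h (beside 18.1% of all genes) and 1 lower member in A_0h against S_0h (beside 9.77%). In S_12h against S_0h, 0 lower members were called with only those groups in the fit, and 0 to 1 when single libraries were left out. Leaving out single libraries gave 0 to 0 called members in the other comparisons and among the higher genes. Over the alternatives the log2 fold change of Zm00001d028307.RefGen_V4 in line S was positive, and single left-out libraries gave 4.12 to 5.01.

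RLE scaling, no low-count filter and the replicate number as a block (a replicate block) changed no count of called members: with the block, 1 lower member stayed called in S_12h against S_0h and 0 members were called otherwise. Deviations of same-numbered libraries correlated at 0.0480 to 0.0962 between S_0h and S_12h and at or below -0.0570 in the other comparisons. In each labelled group 1 library lay closest to another group, and this enters the deviations. These correlations therefore cannot decide whether the numbers pair the libraries. Depth sets the limit for the genes at 0 counts.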
